A study of Arabidopsis thaliana with 4 samples.

Results

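Polysomal RNA was set against non-polysomal RNA of dehydrated Arabidopsis thaliana plants, a comparison that rests on 2 of the 4 arrays of the study, 1 for each fraction. Polysomal RNA is the messenger RNA that carries at least 2 ribosomes, and non-polysomal RNA is either free of ribosomes or carries a single one. The other 2 arrays hold the same fractions of plants kept without stress, and their ratio is given beside that of dehydration where it helps to place a value. Each sample is RNA of 1 fraction and not unfractionated RNA. All were hybridized to Affymetrix ATH1 arrays, and dehydration was the only treatment named. Genotype, age, tissue, the length of dehydration and whether both fractions came from the same plants are not given in the sources used here, so no tissue could be checked against its markers. The members of this comparison are therefore 2 of 4 samples, and across them 22746 probe sets could be compared.

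A ribosome that starts on a messenger RNA is soon followed by others when initiation is frequent, and the message then sediments as a polysome. Messages that are held back from initiation stay free, are bound in messenger ribonucleoprotein particles or carry a lone ribosome. Water deficit is known to lower polysome content in plants, while messages for protective proteins are among those that keep ribosomes. Organelles translate their own messages on their own ribosomes, which sediment differently from those of the cytosol.

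The values are signal intensities scaled to a common mean on each array. The log2 ratio of the polysomal signal to the non-polysomal one is therefore relative to the average transcript of both arrays and is not the share of a message that sits on polysomes. The RNA came from bulk extracts, in which fewer cells of a type and less RNA per cell cannot be told apart. Each fraction has 1 array and hence no replicate check; nothing was tested, and genes are described by size only. A log2 ratio of at least 1 or at most -1, a 2-fold difference, is called higher or lower below. Signals under 69.9 were raised to that limit, and a ratio that rests on one is written as at least or at most. The precision is limited by the number of arrays. For the 48 loci that several measured probe sets represent, the log2 ratios of the brightest and the next probe set differed by a median of 0.38 and at most by 1.51, with an SD of 0.53. They had the same sign at 38 of these loci. Of 11 loci called from the brightest probe set, 10 kept their sign with the next one and 7 were past 2-fold in both.

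Among 11373 measured probe sets the polysomal signal was at least 2-fold higher for 1030 (9.06%) and at least 2-fold lower for 1323 (11.6%). At 4-fold 75 were higher and 148 lower, and at 8-fold 4 were higher and 12 lower, so the low side reached further than the high side. The middle of the distribution was narrow, since the log2 ratio lay between -0.56 and 0.47 for the probe sets from percentile 25 to percentile 75. Among the 5978 loci that could be named, 475 (7.95%) were higher and 778 (13.0%) lower, with a median log2 ratio of -0.10. Of these loci 2690 lay above 0 and 3288 below 0, and counts of members above or below 0 are read against that. The 5345 measured probe sets without a name had a median of 0.03, with 554 higher and 534 lower. The named loci thus lean further to the low side than the array as a whole, and the list medians below are read against -0.10.

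**Figure D1:**
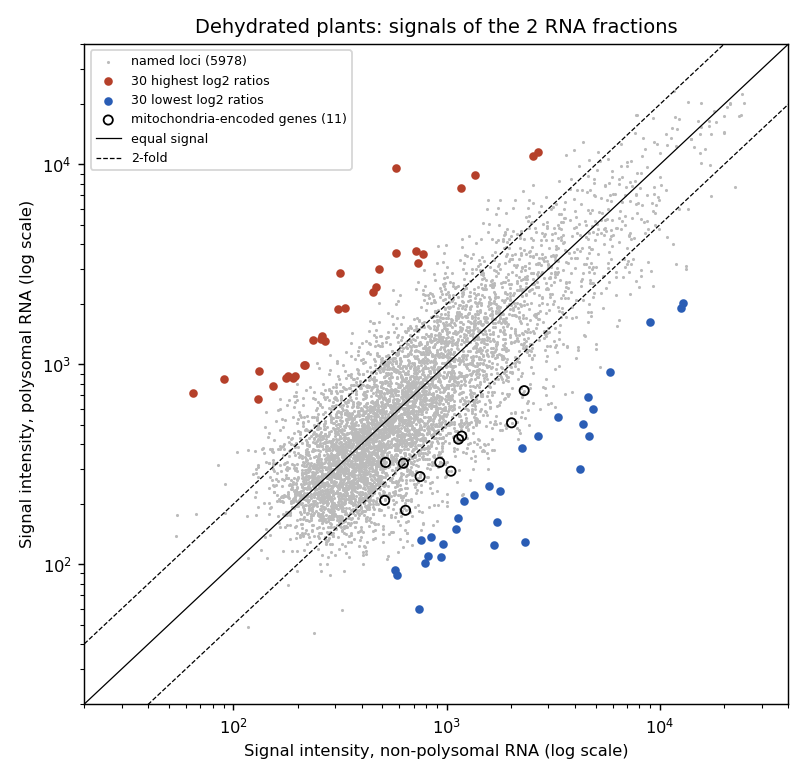
Signal intensity of each named locus in non-polysomal RNA (x axis, log scale) and polysomal RNA (y axis, log scale) of dehydrated plants, 1 array each. Grey points are the 5978 named loci, red and blue points the 30 highest and 30 lowest log2 ratios, and circles the 11 mitochondria-encoded genes, all of which lie below the line of equal signal.

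The ratio moved with brightness. When the measured probe sets were divided into 10 equal bins by their mean log2 signal on the dehydration arrays, the median log2 ratio was -0.27 in the dimmest bin and 0.20 in the brightest. The share that was at least 2-fold higher was 5.10% in the dimmest bin and 13.4% in the brightest, while the share at least 2-fold lower was 13.5% and 8.17%. Control probe sets were compared as a measure of RNA integrity. The ratio of 3′ to 5′ signal for the older GAPDH controls was 1.83 outside polysomes and 1.08 on them, and that for the older actin controls was 5.21 and 9.67. Of 6 such pairs of controls, 2 had a lower 3′ to 5′ ratio in polysomal RNA, so the controls did not share a direction. Newer ubiquitin, among these 2, was at 1.60 in both fractions, and newer actin was at 1.97 in both. Newer GAPDH had 0.73 outside polysomes and 0.84 on them, and older ubiquitin 1.60 and 1.98. Apart from the near-equal pairs, only older GAPDH was thus lower on polysomes. The 5S ribosomal RNA control had signals of 2966 outside polysomes and 1765 on them. The 18 hybridization controls, bacterial and phage transcripts added at a set amount, had log2 ratios from -0.46 to 0.19. The part that brightness or RNA integrity plays in the ratios below was not tested.

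**Figure D2:**
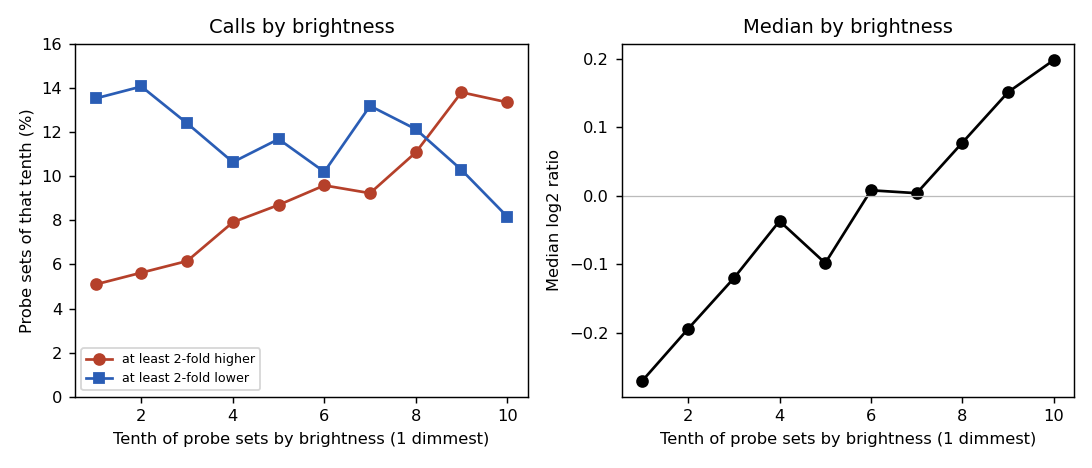
Left, the percentage of probe sets at least 2-fold higher (red) or lower (blue) in polysomal RNA in each of 10 equal bins of the 11373 measured probe sets, from the dimmest (1) to the brightest (10). Right, the median log2 ratio of each bin, which was -0.27 in the dimmest and 0.20 in the brightest.

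Among the 30 named loci with the highest ratios, log2 ratios ran from 2.11 to 4.06. Their signals in non-polysomal RNA ranged from 64.9 to 2668 with a median of 290, and those in polysomal RNA from 669 to 11504 with a median of 1641. The bulk of them, 25 of 30, are named here only by their locus, and 5 carry a gene symbol. AT1G64370 stood first, with signals of 579 outside polysomes and 9643 on them, a 16.7-fold difference. NRPB7, a subunit of RNA polymerase II, gave 64.9 in non-polysomal RNA, which is under the limit, and 718 in polysomal RNA, and was thus at least 10.3-fold higher.

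The other symbols at the high end belong to different kinds of proteins. CYS1, a cystatin that inhibits cysteine proteases, had signals of 721 outside polysomes and 3703 on them, a log2 ratio of 2.36. ETFBETA, a subunit of the mitochondrial electron transfer flavoprotein, gave 215 and 989, a log2 ratio of 2.20. BGLU33, of the beta-glucosidase family, gave 217 and 991, a log2 ratio of 2.19. COR47, a dehydrin, gave 2668 and 11504, a log2 ratio of 2.11. In all 4 the polysomal signal was more than 4 times the non-polysomal one.

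Of the 30 highest loci, 24 were also at least 2-fold higher in polysomal RNA without stress, where 7.61% of named loci were. A further 3 were above 0 there but under 2-fold, among them ETFBETA at 0.31. The remaining 3, AT3G53980, AT3G17520 and AT3G02480, had a ratio below 0 without stress.

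Among the 30 loci with the lowest ratios, log2 ratios ran from -4.17 to -2.46, and the median was -2.74. Non-polysomal signals ranged from 569.9 to 12852 with a median of 1692, and polysomal signals from 60.1 to 2021 with a median of 215. Gene symbols are carried by 2 of them, DI21 and DI19, both named as drought-induced. DI21 had signals of 2332 outside polysomes and 129 on them, a log2 ratio of -4.17 and the largest difference of either direction among the named loci. DI19 gave 12519 and 1914, a log2 ratio of -2.71. All 30 were also at least 2-fold lower without stress, where 12.9% of named loci were. The probe set of 1 of the 30, AT2G06480, is marked as matching other sequences.

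**Figure D3:**
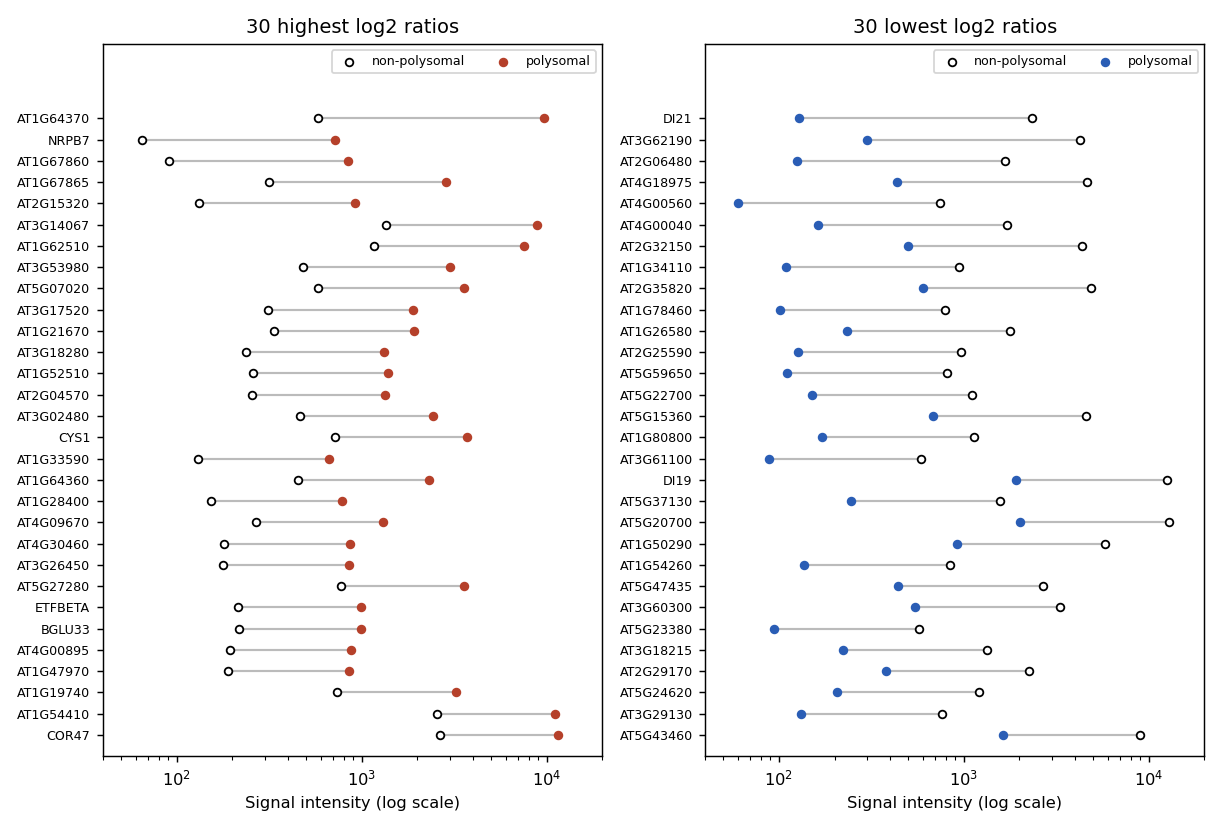
Signal intensity (x axis, log scale) in non-polysomal RNA (open circles) and polysomal RNA (filled circles) under dehydration for the 30 named loci with the highest log2 ratios (left) and the 30 with the lowest (right), 1 array each. Lines join both values of a locus, and AT1G64370 and DI21 span the widest gaps.

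Both conditions were also set side by side for all named loci. Over 5978 loci the log2 ratios under dehydration and without stress had a Pearson's r of 0.81 and a Spearman's rho of 0.80. This is across genes that share the arrays, and genes are not independent replicates. Of the 475 loci at least 2-fold higher under dehydration, 268 were so without stress, which is 56.4% of the first set and 58.9% of the 455 of the second. Of the 778 lower loci, 500 were so without stress, 64.3% of the first set and 64.8% of the 772 of the second. The arrays of each condition share a hybridization batch of their own, per the file headers. The dehydration ratio therefore lies within a single batch, but in any difference between the conditions batch and dehydration cannot be told apart.

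A set of 10 loci, chosen here after their values were seen, lay on opposite sides in both conditions. They were at least 2-fold lower in polysomal RNA without stress and at least 2-fold higher under dehydration, and 0 loci went the opposite way. LEA4-5, a late embryogenesis abundant protein, had signals of 352 outside polysomes and 63.0 on them without stress, against 2910 and 6895 under dehydration. EXLB1, an expansin-like gene, gave 356 and 153 without stress and 559 and 2345 under dehydration. ZW9 gave 378 and 138 without stress and 858 and 1728 under dehydration.

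The other 7 carry no gene symbol here. AT3G53980 gave 402 and 34.9 without stress and 482 and 3011 under dehydration, so its signal outside polysomes differed little between conditions while that on polysomes was under the limit in the first and far above it in the second. AT5G50360 differed between conditions in both fractions, from 178 and 20.5 to 1066 and 2465. For 6 of the 10 loci the unstressed signal on polysomes lay under the limit, so their ratio there is at most the value given. The non-polysomal signal of the 10 was between -0.08 and 3.05 higher under dehydration on the log2 scale.

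**Figure D4:**
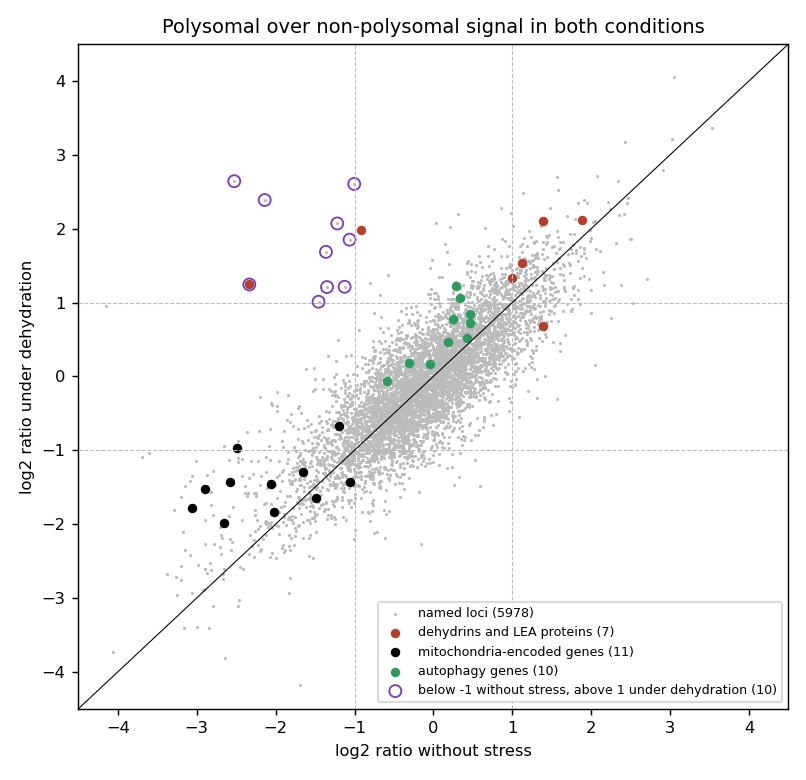
The log2 ratio of polysomal to non-polysomal signal without stress (x axis) and under dehydration (y axis) for 5978 named loci (grey), with dehydrins and LEA proteins in red, mitochondria-encoded genes in black and autophagy genes in green. Purple circles mark the 10 loci below -1 without stress and above 1 under dehydration, and the solid line marks equal ratios.

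Gene lists were formed from annotated names, and 59 had at least 3 measured members. Dehydrins and LEA proteins, which protect membranes and proteins when cells lose water, had the highest list median, 1.53 against -0.10 for all named loci. Of 7 measured members 6 were at least 2-fold higher, 0 were lower and all 7 were above 0, where 7.95% of named loci were higher. AT1G54410, annotated as an 11 kDa dehydrin (HIRD11), had signals of 2543 outside polysomes and 11067 on them, a log2 ratio of 2.12. LTI30, a dehydrin induced by low temperature, gave 997 and 3946, a log2 ratio of 1.99. COR15A and COR15B, both cold-regulated proteins of the chloroplast stroma, were at 1.33 and 1.53. AT2G44060, annotated as LEA26, was lowest at 0.68, with 4540.2 and 7256. The median kept its side of the all-locus median under each of the 11 alternatives, with a range of 1.24 to 1.79. Without stress the list median was 1.12.

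Genes named for drought, salt, cold or osmotic stress outside that list did not share a direction. Their median was -0.03, with 2 of 17 higher (11.8%) and 4 lower (23.5%), where 7.95% and 13.0% of named loci were. RD2 gave 2552 outside polysomes and 7876 on them, a log2 ratio of 1.63, and TIL, a temperature-induced lipocalin, gave 3945 and 11749, a log2 ratio of 1.57. At the low end, after DI21 and DI19, SIS, a salt-induced serine-rich protein, gave 1335 and 367, a log2 ratio of -1.86, and HVA22C gave 836 and 242, a log2 ratio of -1.79. The median turned above 0 under median, quantile or hybridization control scaling and with the filter at percentile 75, and it lay below the all-locus median with no filter.

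Autophagy genes, whose products enclose cell contents for delivery to the vacuole, had a median of 0.62. Of 10 measured members 9 were above 0, where 2690 of the 5978 named loci were. At least 2-fold higher were 2, where 7.95% of named loci were, and 0 were lower. APG8A, an ATG8 protein that is joined to the membrane lipid of the forming vesicle, gave 544 outside polysomes and 1271 on them, a log2 ratio of 1.22. ATG8F gave 2138 and 4476, a log2 ratio of 1.07. ATG3, the enzyme that passes ATG8 to its lipid, was at 0.78, and ATG8E was lowest at -0.07. Their median without stress was 0.27.

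Proteases and their inhibitors had a median of 0.42, with 5 of 18 higher (27.8%) and 1 lower (5.56%). Of all named loci 7.95% were higher and 13.0% lower. GAMMA-VPE, a vacuolar processing enzyme, gave 2282 outside polysomes and 7349 on them, a log2 ratio of 1.69. APA1, an aspartic protease, gave 4377 and 12936, a log2 ratio of 1.56, and CLPP4, a subunit of the plastid Clp protease, was at 1.71. SERPIN1, a protease inhibitor, was at 1.16. The subtilase SBT3.12 lay far from the others, with 638 and 148, a log2 ratio of -2.11. Serine carboxypeptidase-like genes, of which 10 of 29 were measured, had a median of 0.35. Of the 10, 4 were higher, SCPL49 at 1.53 foremost, and 1 was lower, scpl50 at -1.20.

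Enzymes that act on small molecules leaned to the polysomal side among the members bright enough to be measured. UDP-glycosyltransferases, which attach sugars to hormones and other metabolites, had a median of 0.64. Of 51 members on the array 17 were measured. Among the 17, 5 were higher (29.4%) and 0 lower, where 7.95% and 13.0% of named loci were. UGT71B1 and GT72B1 were at 1.47 and 1.46. Cytochrome P450 genes, of which 7 of 22 were measured, had a median of 0.42, with all 7 above 0 and 2 higher. Glutathione transferases, of which 5 of 14 were measured, had a median of 0.55, with GSTU20 at 1.84 and GSTU18 at -1.04 on opposite sides. With no filter on dim probe sets the medians of these 3 lists and of the carboxypeptidase-like genes were 0, level with all loci. A locus with both signals under the limit has a ratio of 0, so this setting cannot decide whether the lean holds. Thioredoxins, glutaredoxins and peroxide-removing enzymes had a median of 0.38, with 5 of 23 higher (21.7%) and 1 lower (4.35%). PRXIIF, a peroxiredoxin of mitochondria, gave 457 outside polysomes and 1609 on them, a log2 ratio of 1.81, while MSRA5, a methionine sulfoxide reductase, was at -1.74.

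Genes of amino acid breakdown had a median of 0.43, against -0.07 without stress. Under dehydration 2 of 14 were higher (14.3%) and 0 lower, where 7.95% and 13.0% of named loci were. BCAT4, which gave 2441 and 5513, a log2 ratio of 1.18, was listed by its name as a branched-chain aminotransferase. It acts in glucosinolate synthesis and not in breakdown. ETFBETA, which is also in the citric acid cycle list below, was the other. The remaining subunits of the electron transfer pathway did not follow ETFBETA, with ETFALPHA at 0.03 and ETFQO, its ubiquinone oxidoreductase, at -0.26. Among genes of the citric acid cycle and alternative dehydrogenases the median was 0.32, with 3 of 19 higher (15.8%) and 0 lower. Besides ETFBETA the higher ones were SDH2-1, an iron-sulfur subunit of succinate dehydrogenase, at 1.08 and CYTC-2, a cytochrome c, at 1.01.

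Aldehyde dehydrogenases spread widely around a median of 0.56. ALDH7B4 was at 0.50 and ALDH22A1 at 0.93, while ALDH10A8, a betaine aldehyde dehydrogenase, gave 7169 outside polysomes and 2892 on them, a log2 ratio of -1.31.

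**Figure D5:**
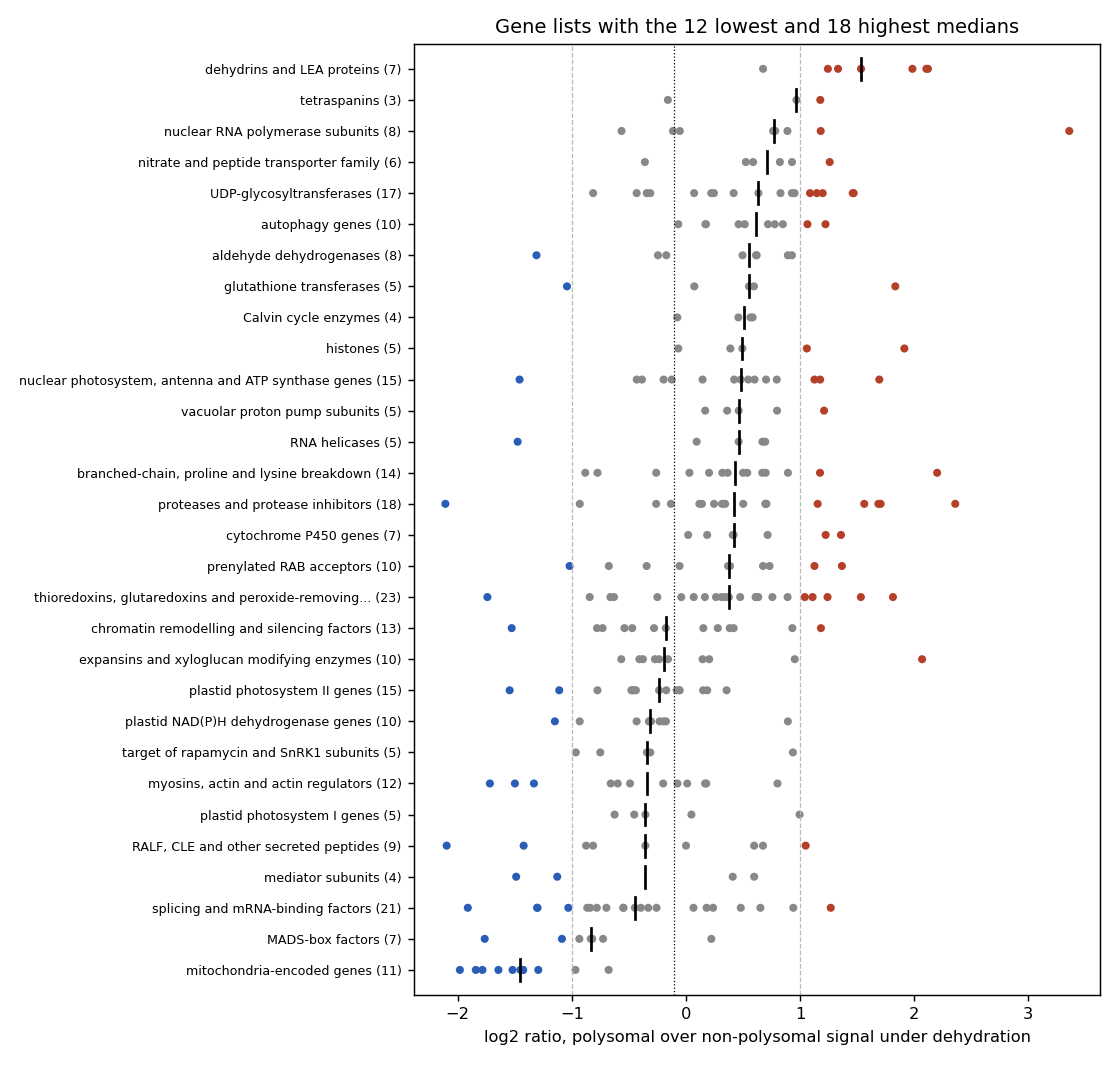
The log2 ratio of each measured member (points) of the 12 gene lists with the lowest and the 18 with the highest medians, with the number of members in brackets. Black bars are list medians, red and blue points are past 2-fold, the dotted line is the median of all named loci (-0.10), and the members of most lists lie on both sides of it.

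Nuclear photosynthesis genes had medians above that of all named loci. Photosystem, antenna and ATP synthase genes had a median of 0.48, with 3 of 15 higher (20%) and 1 lower (6.67%). Of all named loci 7.95% were higher and 13.0% lower. LHCB4.3, a minor antenna protein, gave 877 outside polysomes and 2839 on them, a log2 ratio of 1.70, whereas its paralog LHCB4.1 gave 19989 and 17456, a log2 ratio of -0.20. The light-harvesting-like proteins LIL3:1 and LIL3:2, which bind enzymes of chlorophyll synthesis, lay on opposite sides at 1.13 and -1.46. The 4 Calvin cycle genes were between -0.08 for RCA, rubisco activase, and 0.59 for SBPASE, sedoheptulose bisphosphatase. Nuclear genes of the plastid NAD(P)H dehydrogenase-like complex and its editing factors had a median of 0.32, with 3 of 7 higher and 1 lower. NdhN, a subunit of the complex, gave 1249 and 3497, a log2 ratio of 1.48. CRR21 and CRR28, both RNA editing factors, were at 1.87 and -1.43.

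Plastid-encoded transcripts stayed closer to the middle. Of 69 measured plastid loci 2 were higher (2.90%) and 5 lower (7.25%), where 7.95% and 13.0% of named loci were. Their median was -0.17, near the -0.10 of all named loci. The genes of plastid ribosomal proteins had a median of 0.15, or -0.01 under quantile normalization. Within it a run of neighbouring genes was high, with rpl22 at 1.46, rps19 at 1.33 and rps3 at 0.93, while rpl16 in the same run was at 0.15. Photosystem II genes had a median of -0.24, which median scaling turned to 0.02. psbA, which encodes the D1 protein of the reaction centre, gave 22429.6 outside polysomes and 7687 on them, a log2 ratio of -1.54 and the lowest of the plastid lists. The adjacent genes psbE, psbF and psbL were alike at -0.48, -0.44 and -0.45, and psbJ beside them was at -0.78. psbD and psbC were at 0.36 and 0.15. In photosystem I psaA parted from its neighbour psaB. The signals of psaA were 5235 outside polysomes and 10444 on them, just under 2-fold, while psaB was at 0.05. Of the NAD(P)H dehydrogenase genes of the plastid 9 of 10 were below 0, where 3288 of the 5978 named loci were. Among these 10, ndhK was lowest at -1.15 and ndhH highest at 0.89.

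Transcripts encoded in the mitochondrial genome were the lowest list, with a median of -1.45. All 11 measured members were below 0, 9 were at least 2-fold lower and 0 higher, where 13.0% of named loci were lower. cox1, a subunit of cytochrome c oxidase, gave 2014 outside polysomes and 510.1 on them, a log2 ratio of -1.98. ccb452 and ccb382, genes of cytochrome c maturation, were at -1.84 and -1.64. For 4 of the 11, ccb452, nad5, nad6 and orfX, the probe set is marked as matching other sequences, and the other 7 lay between -1.98 and -0.97. The nad genes, subunits of complex I, lay between -1.78 for nad4L and -1.29 for nad9. The members nearest to 0 were orfX at -0.68 and ccb206 at -0.97. Under the 11 alternatives the median lay between -1.64 and -1.19. Without stress the list median was -2.06, further from 0 than under dehydration.

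The nuclear loci from AT2G07674 to AT2G07776, in the stretch of chromosome 2 that holds a copy of the mitochondrial genome, lay on the same side. This set of loci was formed after such loci had been seen among the low ones. Of 16 measured loci of the stretch 15 were below 0, 12 were at least 2-fold lower and 0 higher, where 13.0% of named loci were lower. Their median was -1.16, against -2.34 without stress. For 13 of the 16 the probe set is marked as matching other sequences, and which sequences gave the signal was not tested. The other 3 were between -1.18 and -0.90.

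Loci annotated as pseudogenes were also low. Their median was -0.99 over 46 measured loci, against -0.10 for 5913 protein-coding loci. Of the 46, 23 were at least 2-fold lower, against 12.6% of the protein-coding loci, 0 were higher and 42 were below 0. AT2G06480 was lowest, with 1668 outside polysomes and 125 on them. For the 16 whose probe set is not marked as shared the median was -0.64, and 4 were lower, against 12.5% of protein-coding loci with such probe sets. Pseudogene loci had a median of -1.66 without stress. The 35 measured probe sets with the suffix that marks cross-matching probes had a median of -1.03, and 18 of them were lower and 0 higher, compared with -0.04 for the 10932 with the plain suffix. The 406 with the other suffix for shared probes had a median of 0.01, with 72 lower (17.7%) and 41 higher (10.1%). Of those with the plain suffix 11.3% were lower and 9.05% higher. Shared probe sets thus did not all lie low, but a larger share of these 406 was lower.

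Lists of RNA-related genes did not share a direction. RNA helicases had a median of 0.46, or -0.39 with the filter at percentile 75, with 4 of 5 above 0 and PRH75 at -1.47. Nuclear pore and mRNA export factors had a median of 0.25, with 2 of 8 higher and 0 lower, where 7.95% and 13.0% of named loci were. Splicing and mRNA-binding factors had a median of -0.45, with 14 of 21 below 0, where 3288 of the 5978 named loci were. Of the 21, 4 were lower, where 13.0% of named loci were, and 1 was higher. For this list the median stayed between -0.50 and -0.19 under the 11 alternatives. ATRBP45C, an RNA-binding protein, gave 9291 outside polysomes and 2469 on them, a log2 ratio of -1.91. LSM6B, of the ring that binds U6 RNA or decapped messages, gave 1085 and 439, a log2 ratio of -1.30, and PRP39, a splicing factor, was also at -1.30. ATU2AF65A, the large subunit of the factor that binds the 3′ splice site, was at -1.03, and its partners ATU2AF35A and U2AF35B were at -0.70 and -0.86. STIPL1, a spliceosome disassembly factor, was highest at 1.27, and Y14, of the exon junction complex, was at 0.94. Without stress the list had a median of -0.40.

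Subunits of nuclear RNA polymerases had a median of 0.77, or 0.19 with no filter. Of 8 members 2 were higher and 0 lower, where 7.95% and 13.0% of named loci were. Apart from NRPB7, NRPB9B was at 1.18, while the paralogs NRPB6A and NRPB6B were at 0.89 and -0.56. The mediator subunits MED6 and MED19A were at -1.49 and -1.13, against 0.41 for MED31. Genes listed by name as MADS-box factors, a family known from flower development, had a median of -0.83, or 0 with no filter. Of 42 on the array 7 were measured, and 6 of the 7 were below 0. AT5G26880 entered this list by its symbol AGL26 alone, and whether it encodes a MADS-box protein was not checked. It gave 1637 outside polysomes and 482 on them, a log2 ratio of -1.76. The bHLH and bZIP factors stood near the all-locus median at -0.11 and -0.15. BZIP28, a membrane-bound sensor of the endoplasmic reticulum, was at 0.97, and BZIP60, which is activated by splicing in the same stress response, was at -0.72.

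The cytoskeleton and secretory pathway gave mixed values. TUA6, an alpha-tubulin, gave 4636 outside polysomes and 2015 on them, a log2 ratio of -1.20, while the other 5 tubulins were between 0.04 and 0.53. Of 12 genes of the actin cytoskeleton 3 were lower (25%) and 0 higher, where 13.0% and 7.95% of named loci were. PLIM2b and WLIM2b, LIM proteins that bundle actin, were at -1.72 and -1.33, and the myosin XIJ was at -1.50. The median of the 12 genes was -0.34 and stood 0.03 above that of all loci with the floor at percentile 50. Vesicle sorting and tethering genes had a median of 0.24, with VPS24.1 and SNF7.1, subunits of the ESCRT-III complex, at 1.60 and 1.52 and VPS22, of ESCRT-II, at -1.02. The 5 genes of vacuolar proton pumps that were found by name, a partial list, were all above 0. They ran from VHA-A3 at 0.17 to the annotated VHA-D, AT3G58730, at 1.21. At least 2-fold higher was 1 of the 5, where 7.95% of named loci were.

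Secreted peptides were split. STOMAGEN, which promotes stomatal formation, gave 1539 outside polysomes and 359.8 on them, a log2 ratio of -2.10, and CLE41, a peptide that maintains the vascular cambium, gave 1113 and 415, a log2 ratio of -1.42. LCR68 was highest at 1.05. Their median was -0.36, but it stood above that of all loci with the filter at percentile 75 (0.12) and was level with it, at 0, with no filter. Among other members past 2-fold, AAPT2, an aminoalcohol phosphotransferase of phospholipid synthesis, gave 1631 and 423, a log2 ratio of -1.95, and Fes1C, a cochaperone of Hsp70, was at -1.87. HTB4, a histone H2B, was on the other side with 437 and 1646, a log2 ratio of 1.91.

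Genes next to each other on a chromosome were compared to see whether they share a ratio. Over 1209 pairs of adjacent named loci Pearson's r was 0.09 and Spearman's rho 0.06, and over 1039 pairs that lie 10 genes apart they were -0.03 and -0.02. Adjacent genes differed by a median of 0.74 on the log2 scale and the distant pairs by 0.76. Of the adjacent pairs 13 were both at least 2-fold higher, 23 were both lower and 23 had 1 gene on each side. Of the 1039 distant pairs these counts were 4, 19 and 26. Among the high pairs were AT1G67860 and AT1G67865, at 3.21 and 3.18, AT1G64360 and AT1G64370, at 2.35 and 4.06, and COR15B and COR15A, at 1.53 and 1.33. Near-identical neighbours can share probes, so that the values of single members of such pairs are uncertain. The probe sets of the high pairs named here are not marked as shared.

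The brightest of the named loci were also listed, which leaves out brighter probe sets without a name. Among the 10 named loci brightest in polysomal RNA, 2 stood out with about 2-fold or more, AT1G13930 with 11675 outside polysomes and 23339 on them and PSBY, a photosystem II protein, at 1.18 with 7819 and 17672. PSAE-1, a photosystem I subunit, was at 0.60 and PRXR1, a peroxidase, at 0.38, and the plastid genes atpB, petB, atpE, psaB and rps4 were between -0.29 for rps4 and 0.05 for psaB. Among the 10 named loci brightest in non-polysomal RNA psbA alone was past 2-fold. AT4G16190 was at -0.42 there, with 23450.1 and 17549.6.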

How the data were processed

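The authors deposited signal intensities of 22810 probe sets on 4 arrays, scaled to a trimmed mean of 500. The arrays are ATH1, per the file headers, and no source used here names the summary software. Arrays were grouped by their labels. Each was brought to an equal mean after removal of 2% at either end. Signals under 69.9 (the median over arrays of percentile 25) were raised to that limit before log2. The 64 control probe sets stayed out, and a probe set counted as measured when its log2 signal, averaged over 4 arrays, reached the median, 7.74. The brightest probe set stands for a locus.

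Of the probe sets 13513 had 1 gene symbol and 503 several, which were not named, and 13436 were matched to the TAIR10.1 gene table. Lists come from annotated symbols and synonyms. The members and lists were chosen with earlier results of these data known. Named are the 30 highest and 30 lowest loci with at least 4 times the limit on the brighter side, the 10 brightest named loci of each fraction, and up to 4 members at either end of each list with at least 3 measured. Any other gene was named after its value was seen. No statistical test was run. Calculations used Python 3.11.15, numpy 2.4.6 and pandas 2.3.3 and were tested on simulated arrays. Alternatives were scaling on medians, quantiles or hybridization controls, the floor at percentile 10 or 50, a pseudocount of 32, the filter, unshared probe sets, and the mean over the probe sets of a locus.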

Additional observations from a re-analysis of the deposited data

How the results depend on the processing

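The counts of 1030 higher and 1323 lower probe sets moved most with the scaling and the filter. Scaling on medians, which shifts every ratio by 0.26, gave 1778 higher and 781 lower probe sets, so 69.5% of the calls lay on the high side in place of 43.8%, against 54.9% with hybridization controls. With the filter at percentile 75, which leaves 5687 probe sets, 627 were higher and 617 lower, and with no filter, which takes in the dim ones, 1210 were higher and 2022 lower. The other alternatives kept both counts within 1.5 times, and 0 of the gene and list values past 2-fold changed sign under any of the 11. Under scaling such a change was hardly possible, since the largest shift of the median was 0.26. A floor or pseudocount cannot reverse the sign of a ratio, and the filter leaves the ratio of a probe set as it is. For single genes this count of 0 was thus nearly fixed in advance and is no measure of stability. Read against the median of all loci, 33 of 59 list medians stayed on their side under each alternative and 26 did not. Most of the 26 did not stay with no filter, where a locus with both signals under the limit has a ratio of 0. Classes by protein length and leader composition were not run, since no sequences were used here. No paired analysis was possible because each group has 1 array. No replicate could be left out. Dim signals limit the low side, since 23.0% of non-polysomal and 29.2% of polysomal signals lay under the limit.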
